A study of Mus musculus with 8 samples.

Results

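The genes described are those that build, load and switch on major histocompatibility complex (MHC) class II, the surface molecule with which macrophages, dendritic cells and B cells show peptides to CD4 T cells. They were chosen by name: the 10 genes H2-Aa, H2-Ab1, H2-Eb1, H2-DMa, H2-DMb1, H2-DMb2, H2-Oa, H2-Ob, Cd74 and Ciita, of 22597 genes in the deposited table. All 10 were in the table and all 10 passed the filter on low counts, which kept 12750 genes. The values come from poly(A) RNA of mouse lung macrophages that were sorted as interstitial macrophages, which lie in the tissue between the air spaces. Recipients were female C57BL/6 mice (CD45.1/CD45.2 IMDTR, also called Cx3cr1-DTR in the labels), whose own interstitial macrophages can be deleted with diphtheria toxin. They were irradiated with the thorax shielded and given marrow of one of 2 kinds. The Tgfbr2_KO group (KO 1 to 4) received CD45.2 Lyz2Cre Tgfbr2fl/fl marrow, in which Cre in Lyz2, a gene of myeloid cells, deletes the floxed stretch of Tgfbr2, the gene of the TGF-β type II receptor. The WT group (WT 1 to 4) received CD45.2 Tgfbr2fl/fl marrow without Cre. Both groups got 50 ng of diphtheria toxin 1 month after transplantation, which empties the niche, and RNA was made from the refilled population 10 days later. One label gives an age of 18 weeks at transplantation and another 12 to 16 weeks. Cre was present in KO donors only, so its own effects and those of the lost receptor cannot be told apart. The labels give neither the CD45 gate, nor how far the niche was emptied, nor whether each library was 1 mouse, so p-values measure only how far these libraries differ among themselves, which may be technical.

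A class II molecule is a pair of an α chain and a β chain. H2-Aa and H2-Ab1 encode the pair called I-A, and H2-Eb1 encodes the β chain of I-E, whose α chain is not made in C57BL/6 mice. Cd74 encodes the invariant chain, which fills the groove of new class II molecules and brings them to the endosome, where proteases cut it down to a short remnant. H2-DM, made of H2-DMa with H2-DMb1 or H2-DMb2, swaps that remnant for antigen peptides, and H2-O, made of H2-Oa and H2-Ob, holds H2-DM back and is best known from B cells and thymic epithelium. Ciita encodes the coactivator that turns most of these genes on, through proteins bound to a shared promoter element made of an X box and a Y box. TGF-β is known to lower Ciita and class II in several cell types.

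The promoters that RefSeq places before these genes matched the letters searched for the shared element to different degrees. The stretches with matches are printed here because that element is what Ciita acts through. Of the 10 genes, 7 are described here from their entries in the RefSeq promoter table (GRCm38.p6), which held 32851 promoters. H2-Ab1 and Ciita had no entry, and the promoter of Cd74 was left out of the description, so these 3 are named only. The 250 bases before each start were searched on both strands for an X box core (AAC and, after 3 bases of any kind, TGANG), a Y box, TGATTGG, and a cyclic AMP response element, TGACGTCA. The letters were chosen with these promoters in view, and no 2 of the matches printed overlap. H2-Eb1 (chr17:34305763-34305822), H2-DMb1 (chr17:34153085-34153144), H2-DMb2 (chr17:34145114-34145173) and H2-Ob (chr17:34238803-34238862), all on the plus strand, had an X box followed by a Y box. The 2 boxes were 17 bases apart in H2-Eb1, 18 in H2-DMb1, 18 in H2-DMb2 and 15 in H2-Ob. H2-Aa (chr17:34287857-34287916, minus strand) had the response element and a Y box, and H2-Oa (chr17:34092291-34092350, plus strand) a Y box without these X letters. The stretches follow 5′ to 3′ along the gene, with the matched motifs in capitals.
H2-Eb1: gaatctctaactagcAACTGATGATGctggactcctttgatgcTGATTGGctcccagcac
H2-DMb1: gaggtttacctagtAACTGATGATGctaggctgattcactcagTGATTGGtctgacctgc
H2-DMb2: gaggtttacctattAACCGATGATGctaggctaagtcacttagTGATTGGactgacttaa
H2-Ob: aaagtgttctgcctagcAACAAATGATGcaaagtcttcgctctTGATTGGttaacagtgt
H2-Aa: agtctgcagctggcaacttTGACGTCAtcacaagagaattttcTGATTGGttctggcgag
H2-Oa: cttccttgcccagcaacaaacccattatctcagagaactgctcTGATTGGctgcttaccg
Neither promoter entry of H2-DMa held any of the 3 motifs. Over all promoters, 2.25% held the X letters, 7.23% the Y letters and 1.55% the response element. An X box with a Y box within the next 30 bases occurred in 7 of the 32851 promoters (0.0213%), and 4 of those 7 were the genes above. A match describes letters only and shows no binding. The lack of a match to these X letters, as in H2-Aa, H2-Oa and H2-DMa, does not show that an X box is absent.

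By the GENCODE M21 annotation of GRCm38, 8 of the 10 genes lie on chromosome 17 between 34092340, where H2-Oa starts, and 34316674, where H2-Eb1 ends. In that order they are H2-Oa, H2-DMa, H2-DMb2, H2-DMb1, H2-Ob, H2-Ab1, H2-Aa and H2-Eb1, and H2-Aa alone is on the minus strand. Cd74 lies on chromosome 18 and Ciita on chromosome 16. H2-DMa overlaps Brd2 on the other strand by 3094 bp and Ciita overlaps Dexi by 25888 bp, and whether the counting used strand is not stated in the sources, so reads in these overlaps may be shared.

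Totals were between 15597310 and 37654133 estimated counts per library, and values below are CPM, counts divided by the library total after scaling by the trimmed mean of M values (TMM). Tgfbr2 itself was at 424 to 576 CPM in Tgfbr2_KO and 474 to 548 CPM in WT, which overlap. Reads outside a deleted exon are still counted, so this checks the labels weakly. Lyz2, which carries Cre in the KO donors, was at 3440 to 5611 CPM in Tgfbr2_KO and 7285 to 13193 CPM in WT, with no overlap. Of 12 interstitial macrophage markers, none was at 0 in any library, and C1qa was at 1398 to 3244 CPM over the 8. The libraries KO 1, WT 1 and WT 2 held far more transcripts of other lung cells than the rest and are called lung-rich below. The sum of 11 epithelial markers was 5618 CPM in KO 1 and 3129 to 3601 CPM in WT 1 and WT 2, against 165 to 218 CPM in KO 2 to 4 and 252 to 254 CPM in WT 3 and WT 4. The sum of the interstitial macrophage markers was 9635 CPM in KO 1 and 14738 to 16374 CPM in WT 1 and WT 2, against 21076 to 21347 CPM in KO 2 to 4 and 24435 to 25050 CPM in WT 3 and WT 4. These sets were made from the data and are not groups of the study. In RNA of sorted pools, fewer cells of a type and less RNA per cell cannot be told apart. WT 3 and WT 4 were very alike, with a median chi-square of 1.87 times counting noise, against 2.06 to 3.08 among KO 2 to 4 and 4.29 between WT 1 and WT 2. Should they share a source, the errors of every fit that uses the sets are too small.

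Class II genes held a large part of the counts of every library. The 10 genes together held 3.05%, 5.88%, 5.56% and 5.70% of the counts of KO 1 to 4, and 4.08%, 4.53%, 5.97% and 6.06% of those of WT 1 to 4. The lowest share was that of KO 1 and the next those of WT 1 and WT 2, so the order followed the library set before the genotype. The mean share was 5.05 ± 1.34% in Tgfbr2_KO and 5.16 ± 1.00% in WT (SD, n = 4 each). Per kilobase of annotated exon, and averaged over the 8 libraries, the level was 14019 CPM for Cd74, 4627 for H2-Eb1, 3034 for H2-Ab1, 2660 for H2-Aa, 366 for H2-DMb1 and 149 for H2-DMa. The remaining levels per kilobase were 24.8 CPM for Ciita, 17.4 for H2-DMb2, 4.38 for H2-Ob and 2.83 for H2-Oa. Each step of this order held in 8 of 8 libraries, except that Ciita lay above H2-DMb2 in 7 of 8. The invariant chain gene stood above every chain gene, and the chain genes above every loading gene, per kilobase, in all 8 libraries.

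For the chains and the invariant chain no genotype difference passed over all 8 libraries, whose spread within each genotype was wide. H2-Aa was at 5404, 11770, 11591 and 11662 CPM in KO 1 to 4, against 7379, 8426, 12074 and 12517 CPM in WT 1 to 4. H2-Ab1 was at 4043, 9005, 8581 and 8963 CPM in KO 1 to 4, against 5532, 6231, 10024 and 9944 CPM in WT 1 to 4. The 2 genes of the I-A pair followed the same order: KO 1 was lowest of all, then WT 1 and WT 2, and within each set the KO libraries lay below the WT libraries. H2-Eb1 was at 4646, 10559.9, 10031 and 10365 CPM in KO 1 to 4, against 6569.7, 7789, 11083 and 10917 CPM in WT 1 to 4, in that same order. Cd74 was at 12437, 28896, 26622 and 27311 CPM in KO 1 to 4, against 17155, 18971, 28004 and 28905 CPM in WT 1 to 4. It differs from the 3 chains in 1 respect: KO 2 lay between WT 3 and WT 4, so outside the lung-rich set its groups overlapped.

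With genotype as the only term, the log2 fold changes (Tgfbr2_KO over WT) were 0.00 (SE 0.31) for H2-Aa, -0.05 (SE 0.33) for H2-Ab1, -0.03 (SE 0.32) for H2-Eb1 and 0.03 (SE 0.33) for Cd74, each with an edgeR adjusted p of 1.00. Within KO 2 to 4, WT 3 and WT 4, where replicates lay close together, the 3 chains fell by small amounts. H2-Ab1 fell to 88.6% of the WT mean there (log2 fold change -0.17, SE 0.03, edgeR adjusted p = 1.90e-05), H2-Eb1 to 93.8% (-0.09, SE 0.03, adjusted p = 0.00782) and H2-Aa to 94.9% (-0.07, SE 0.02, adjusted p = 0.0213). Cd74, at 97.0% of WT there, did not pass (-0.04, SE 0.03, edgeR adjusted p = 0.317). Within the lung-rich set the single KO library was at 64.7% to 68.9% of the WT mean for these 4 genes. The log2 fold changes there were -0.60 to -0.69, and none passed (edgeR adjusted p = 0.0575 for H2-Eb1, 0.064 for Cd74, 0.0647 for H2-Ab1 and 0.0666 for H2-Aa). KO 1 also held more epithelial and endothelial transcripts than WT 1 and WT 2 (epithelial sums of 5618 against 3129 to 3601 CPM, endothelial sums of 4399 against 2270 to 2907 CPM), and the part of these in that difference was not tested.

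**Figure D1:**
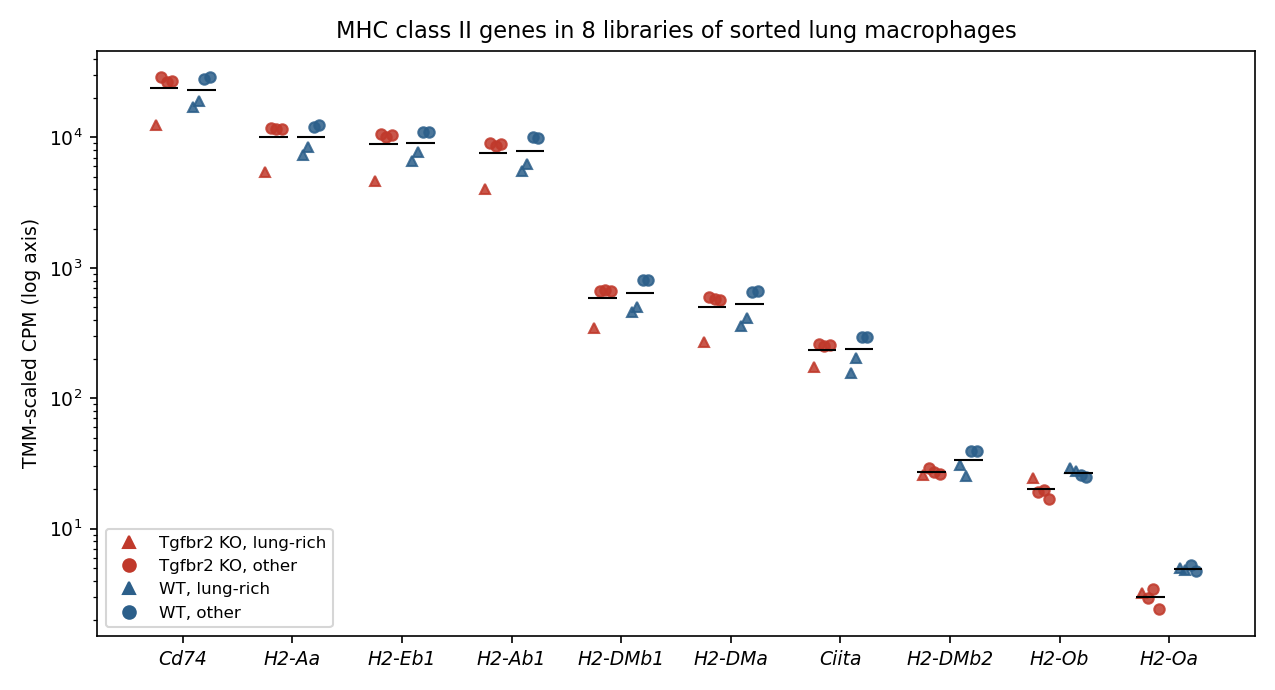
CPM (TMM-scaled, log axis) of each of the 10 class II genes in the 8 libraries, Tgfbr2_KO left of WT for each gene, with triangles for lung-rich libraries, circles for the others and lines at the group means. For the chains, H2-DMa, H2-DMb1 and Cd74 the lung-rich libraries lie lowest in both genotypes, while H2-Oa and H2-Ob are lower in every KO library than in every WT library.

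The main peptide exchange genes, H2-DMa and H2-DMb1, fell in Tgfbr2_KO outside the lung-rich set and in the fit with the set as a term. H2-DMa, the α chain of H2-DM, was at 269.8, 594, 577 and 564 CPM in KO 1 to 4, against 361, 415, 656 and 669 CPM in WT 1 to 4. H2-DMb1, its main β chain, was at 344, 670.2, 672 and 664 CPM in KO 1 to 4, against 457, 503, 808 and 811 CPM in WT 1 to 4. For both, every KO library lay below every WT library of its own set, and the groups overlapped only across the sets. Outside the lung-rich set H2-DMb1 fell to 82.6% of the WT mean (edgeR log2 fold change -0.27, SE 0.03, adjusted p = 1.27e-07) and H2-DMa to 87.3% (-0.19, SE 0.03, adjusted p = 3.41e-05). A fit over all 8 libraries with the set as a term gave log2 fold changes of -0.35 for H2-DMb1 (SE 0.06, edgeR adjusted p = 0.00867) and -0.31 for H2-DMa (SE 0.08, adjusted p = 0.0336). Pooled over the sets without that term they were -0.13 (SE 0.29) and -0.07 (SE 0.31), each with an edgeR adjusted p of 1.00.

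H2-DMb2, the other β chain gene of H2-DM, was counted at a far lower level, and its values are uncertain. It was at 25.8, 29.0, 27.2 and 26.4 CPM in KO 1 to 4, against 30.6, 25.4, 39.2 and 39.6 CPM in WT 1 to 4. WT 3 and WT 4 stood above the other 6 libraries, which lay close together. Within the 5 other libraries it fell to 69.8% of WT (log2 fold change -0.51, SE 0.07, edgeR adjusted p = 3.18e-06). The longest coding transcripts of H2-DMb1 and H2-DMb2 were identical at 1010 of 1058 aligned bases (95.46%), and 29.7% of the 31-base words of H2-DMb2 also occurred in H2-DMb1. The estimated counts of the 2 genes were not whole numbers in most libraries but their sums were (within 0.001), so reads were divided between them. H2-DMb2 took 6.97%, 4.14%, 3.89% and 3.83% of that sum in KO 1 to 4 and 6.28%, 4.81%, 4.63% and 4.66% in WT 1 to 4. H2-Eb1 and its neighbour H2-Eb2 share far less, at 0.418% of such words.

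The genes of H2-O were the only 2 of the 10 whose KO and WT libraries did not overlap in TMM-scaled CPM, and both were lower in Tgfbr2_KO. Over all genes tested, 2.71% were lower in KO without overlap. H2-Oa was at 3.21, 2.96, 3.47 and 2.42 CPM in KO 1 to 4, against 4.97, 4.83, 5.28 and 4.73 CPM in WT 1 to 4. These are low values, resting on 44 to 168 estimated counts per library. H2-Ob was at 24.5, 19.2, 19.8 and 16.99 CPM in KO 1 to 4, against 29.2, 27.9, 25.9 and 24.8 CPM in WT 1 to 4. For H2-Ob the highest KO library was KO 1 and lay just under the lowest WT library, WT 4. This separation of H2-Ob hung on the TMM scaling. By library totals alone KO 1 was at 27.4 CPM, above WT 3 (24.5 CPM) and WT 4 (23.4 CPM). H2-Oa did not overlap by library totals either.

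H2-Oa averaged 3.01 ± 0.45 CPM in Tgfbr2_KO and 4.95 ± 0.24 CPM in WT (SD, n = 4 each), and its log2 fold change was -0.72 (SE 0.16, interval -1.09 to -0.34). H2-Ob averaged 20.1 ± 3.17 CPM in Tgfbr2_KO and 26.9 ± 1.98 CPM in WT (SD, n = 4 each), and its log2 fold change was -0.42 (SE 0.12, interval -0.70 to -0.14). Neither passed in the edgeR fit with genotype only (adjusted p = 0.149 for H2-Oa and 0.232 for H2-Ob), while both passed in DESeq2 (adjusted p = 0.00133 and 0.0333 in that order). When the set was a term in the fit, both fell, H2-Oa by 0.70 (SE 0.15, edgeR adjusted p = 0.0158) and H2-Ob by 0.36 (SE 0.08, adjusted p = 0.0157) on the log2 scale. The difference had the same direction in both sets. Outside the lung-rich set KO libraries were at 58.9% of WT for H2-Oa and 73.7% for H2-Ob. Within it the single KO library, KO 1, was at 65.5% and 85.9%. The log2 fold changes within it were -0.67 (SE 0.27) for H2-Oa and -0.28 (SE 0.13) for H2-Ob, and both rest on KO 1 alone. H2-O as a share of H2-DM, both in CPM per kilobase, was 2.30%, 0.965%, 1.06% and 0.851% in KO 1 to 4 and 2.27%, 1.99%, 1.24% and 1.14% in WT 1 to 4. It was higher in each lung-rich library than in each of the others.

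H2-O is known from B cells, so B cell markers stand beside it. Outside the lung-rich set most of them were higher in Tgfbr2_KO, and 1 was lower. Of 9 listed markers none was at 0 in any library, and 7 were higher in the lung-rich libraries than in the others by edgeR with genotype as a term, where 30.9% of all tested genes were higher. In KO 2 to 4 against WT 3 and WT 4, 8 of 9 had a log2 fold change above 0 and 1 below. EdgeR called 4 of 9 higher and 1 lower there, beside 19.7% and 18.7% of all genes. The lower one was Cd22, an inhibitory receptor of B cells, at 16.3, 16.1, 16.5 and 14.0 CPM in KO 1 to 4, against 14.1, 23.5, 56.0 and 54.6 CPM in WT 1 to 4, so that WT 3 and WT 4 stood above the rest (log2 fold change -1.83, SE 0.07 in the 5 libraries). Cd79a, Ms4a1 and Pax5, picked after their values were seen, summed to 43.05, 5.04, 5.61 and 5.06 CPM in KO 1 to 4, against 33.8, 21.9, 2.36 and 3.32 CPM in WT 1 to 4. Outside the lung-rich set H2-Oa, H2-Ob and Cd22 were lower in KO than in WT, and Cd79a and Pax5 higher. Ms4a1 overlapped between the genotypes there. In the lung-rich set KO 1 lay below WT 1 and WT 2 for H2-Oa and H2-Ob, but between them for Cd22. The sum of all 9, led by Ighm, Cd22 and Cd79b, was 297 to 399 CPM in Tgfbr2_KO and 288 to 353 CPM in WT. The part of B cell transcripts in the H2-O values was not tested.

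**Figure D2:**
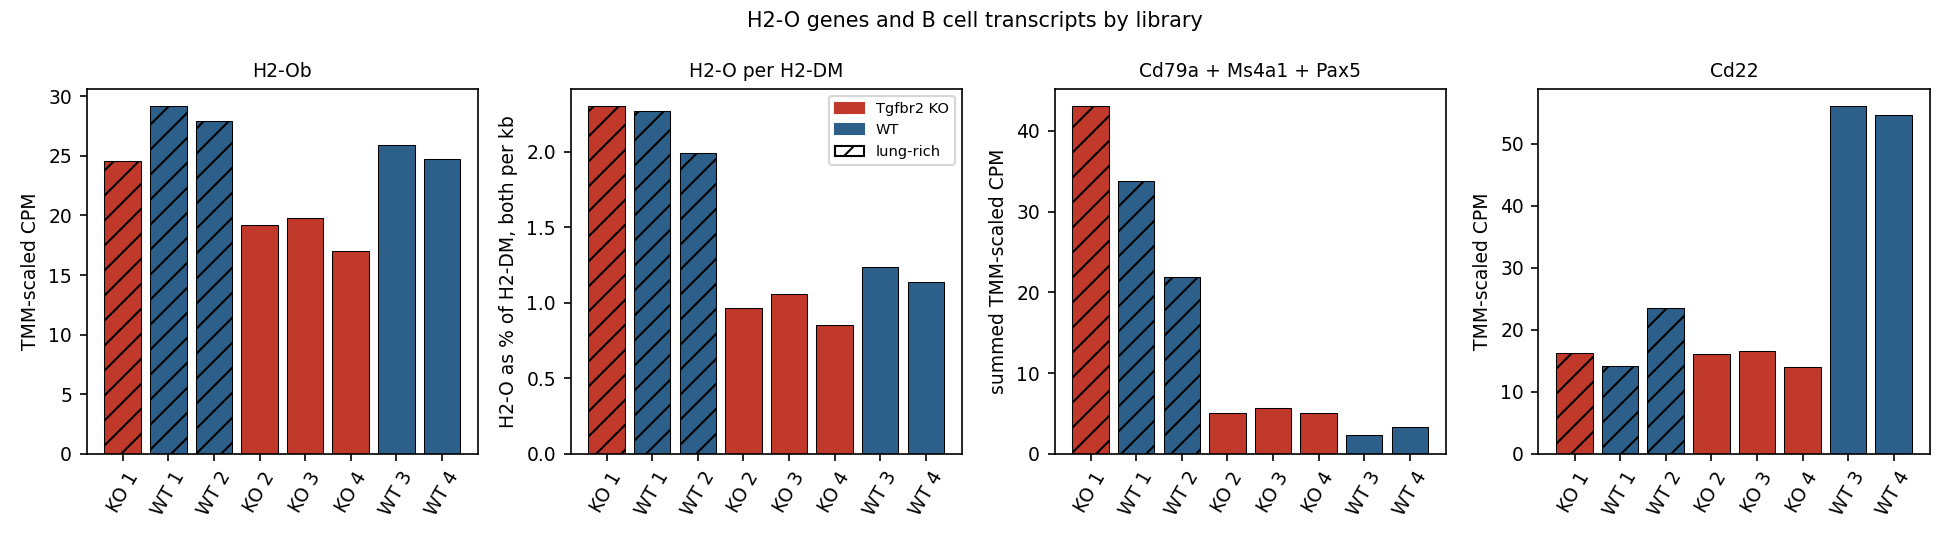
Bars of 4 quantities in each of the 8 libraries, red for Tgfbr2_KO and blue for WT, with lung-rich libraries hatched: H2-Ob in CPM, H2-O as a percent of H2-DM (both in CPM per kilobase), the summed CPM of Cd79a, Ms4a1 and Pax5, and Cd22 in CPM. Outside the lung-rich set the 3-gene sum is higher in KO (5.04 to 5.61 CPM) than in WT (2.36 and 3.32 CPM), while Cd22 is lower in KO (14.0 to 16.5 CPM) than in WT (56.0 and 54.6 CPM), as is H2-Ob.

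Ciita, the coactivator, was at 173, 259, 252 and 255 CPM in KO 1 to 4, against 157, 205, 293 and 297 CPM in WT 1 to 4. Unlike the chains, KO 1 lay between WT 1 and WT 2. The pooled log2 fold change was -0.02 (SE 0.24, edgeR adjusted p = 1.00). Within the 5 other libraries Ciita fell to 86.5% of WT (-0.21, SE 0.03, edgeR adjusted p = 2.85e-05), and in the lung-rich set KO 1 was at 95.6% (-0.13, SE 0.18, edgeR adjusted p = 0.744). In the fit with the set as a term it did not pass (-0.16, SE 0.08, edgeR adjusted p = 0.232).

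Read over the 10 genes, the number called depended on how the libraries were grouped. With genotype as the only term, 0 of 10 were called by edgeR, where 0.298% of all tested genes were called. At an unadjusted p under 0.05 there were 2, H2-Oa and H2-Ob, both lower, against 3.84% of all genes lower, and DESeq2 called the same 2, against 1.41% lower. When the set was a term, 5 of 10 were lower (H2-DMa, H2-DMb1, H2-DMb2, H2-Oa and H2-Ob) and 0 higher, against 7.89% of all genes lower and 8.59% higher. In KO 2 to 4 against WT 3 and WT 4, 9 of 10 were lower, all but Cd74, where 18.7% of all genes were lower and 19.7% higher, and 9 of 10 were lower without overlap between the groups, against 30.2% of all genes. Within the 3 lung-rich libraries edgeR called 0 of 10, against 1.95% of all genes lower, while 7 of 10 were lower at an unadjusted p under 0.05 there, against 9.95%. KO 1 lay below both WT 1 and WT 2 for 8 of 10, against 32.8% of all genes. The median log2 fold change of the 10 was -0.06 with genotype only and -0.31 with the set as a term. It was -0.20 outside the lung-rich set and -0.60 within it. Medians of all tested genes were -0.01, 0.03, 0.00 and 0.00 in that order. Those of the 12 interstitial macrophage markers were -0.02, -0.24, -0.11 and -0.65, so these markers fell too. EdgeR called 5 of these 12 lower and 0 higher with the set as a term, and 6 lower and 3 higher outside the lung-rich set. The part of a shift shared with these markers in the class II values was not tested. When WT 3 and WT 4 were summed into 1 library and KO 4 was left out, the fit with the set as a term called 0 of 10 by edgeR, against 0.853% of all genes lower (6 of 10 lower at an unadjusted p under 0.05, against 9.49%), with adjusted p between 0.106 for H2-Ob and 0.512 for Ciita. That fit holds 6 libraries in place of 8.

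**Figure D3:**
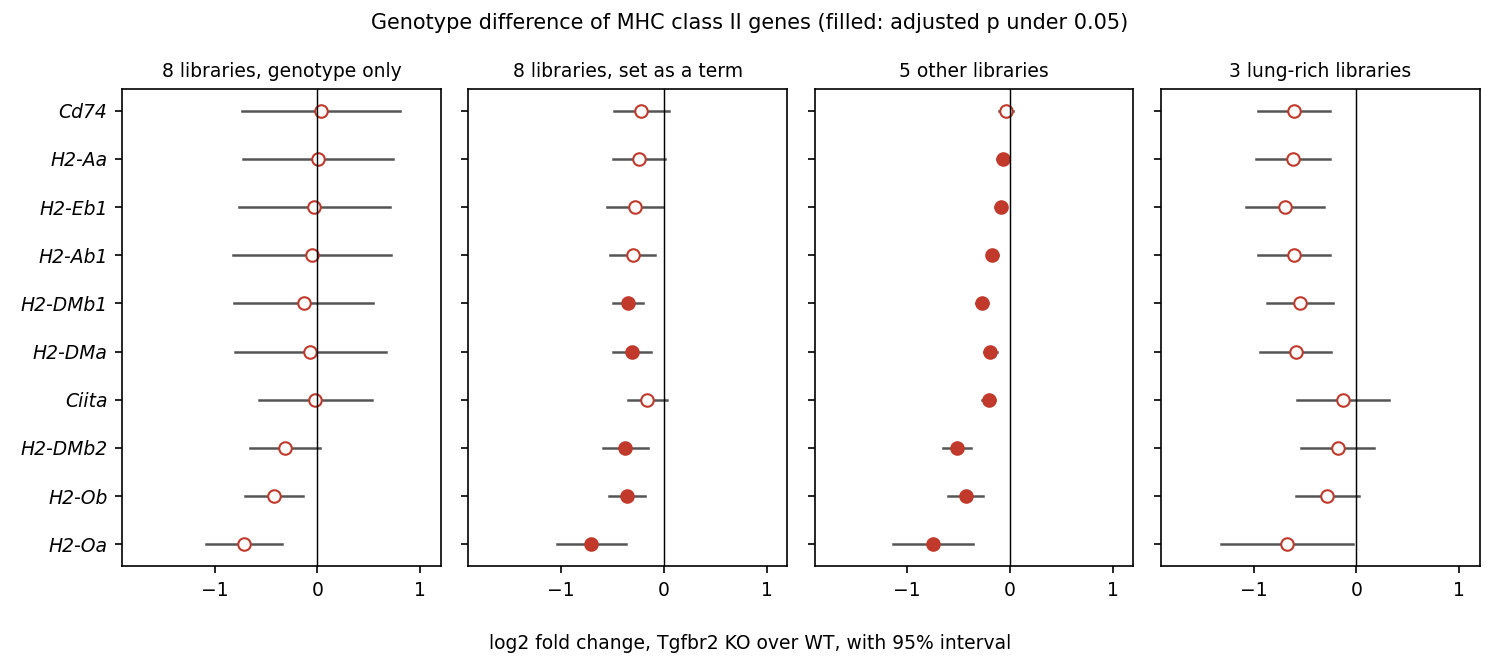
Log2 fold change (Tgfbr2_KO over WT) of each class II gene with its 95% interval in 4 fits: genotype only, library set as a term, the 5 other libraries and the 3 lung-rich libraries, with filled points where the edgeR adjusted p was under 0.05. Genotype-only intervals include 0 for 8 of the 10 genes, and only those of H2-Oa and H2-Ob lie wholly below it.

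Most class II genes were lower in the lung-rich libraries than in the others, in both genotypes. With genotype as a term, 8 of 10 were lower in the lung-rich libraries than in the others, against 27.6% of all tested genes lower, and 1 of 10 was higher (H2-Ob, log2 difference 0.27, SE 0.08, edgeR adjusted p = 0.0159), against 30.9% of all genes higher. The log2 difference, lung-rich minus other, was -0.92 for H2-Ab1 (SE 0.10, edgeR adjusted p = 7.90e-05), -0.84 for H2-Aa (SE 0.12, adjusted p = 3.28e-04), -0.86 for Cd74 (SE 0.12, adjusted p = 3.85e-04) and -0.64 for Ciita (SE 0.09, adjusted p = 2.78e-04). For H2-Oa it was 0.03 (SE 0.15, edgeR adjusted p = 0.862). For 7 of the 10 genes each lung-rich library lay below each other library, against 23.1% of all genes. The genotype difference also differed between the sets for 5 of 10, against 10.1% of all tested genes in that direction: it was more negative in the lung-rich set by 0.54 for H2-Eb1, 0.49 for Cd74, 0.47 for H2-Aa, 0.37 for H2-Ab1 and 0.33 for H2-DMa (edgeR interaction, adjusted p = 0.00879, 0.00223, 0.00331, 0.0109 and 0.0320). Of the 12 interstitial macrophage markers 7 were called the same way in the interaction, with a median log2 difference of -0.50, against -0.27 for the class II genes, and the part of these markers' shift in the class II values was not tested. That set holds a single KO library, so what is particular to KO 1 and what belongs to the genotype cannot be told apart in it.

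Across the 8 libraries the chains, H2-DMa, H2-DMb1 and Cd74 moved almost as one, and the H2-O genes apart from them. The range from lowest to highest library on the log2 CPM scale was 1.21 to 1.31 for the 3 chains, Cd74, H2-DMa and H2-DMb1, against a median of 0.56 for genes of at least 10 CPM. Likeness was measured as the root mean square difference from H2-Ab1 in log2 CPM over the 8 libraries, each gene centred on its own mean. H2-DMa was the nearest of 8807 genes to H2-Ab1, at 0.03. H2-Aa (0.05), H2-Eb1 (0.06), Cd74 (0.06) and H2-DMb1 (0.07) were the 4th, 6th, 9th and 13th nearest. Ciita (0.19) came at rank 402, H2-DMb2 (0.37) at rank 2909 and H2-Ob (0.61) at rank 6955, while H2-Oa was under 10 CPM and is not ranked. H2-Oa and H2-Ob were nearer to each other, at 0.19, than either was to H2-Ab1, at 0.59 and 0.61. These are descriptions over 8 libraries that share a split into sets, without a test.

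The 6 genes outside the class II group with the most similar profile to H2-Ab1 were Aif1, Tyrobp, Fyb, Cotl1, Csf2ra and Gla, at 0.05 to 0.06. Aif1 encodes the calcium-binding macrophage protein also known as Iba1 and was at 81.2, 174, 164 and 171 CPM in KO 1 to 4, against 111, 121, 206 and 209 CPM in WT 1 to 4. Tyrobp, the adaptor DAP12 of activating myeloid receptors, was at 271, 545, 542 and 536 CPM in KO 1 to 4, against 347, 389, 597 and 602 CPM in WT 1 to 4. Csf2ra, the α chain of the GM-CSF receptor, was at 227, 489, 499 and 496 CPM in KO 1 to 4, against 289.8, 335, 522 and 509 CPM in WT 1 to 4. Fyb, an adaptor of immune cells, Cotl1, which binds actin, and Gla, a lysosomal galactosidase, were the others. Aif1, Tyrobp and Csf2ra were each lowest in KO 1, next lowest in WT 1 and WT 2, and below WT 3 and WT 4 in KO 2 to 4, as H2-Ab1 was.

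**Figure D4:**
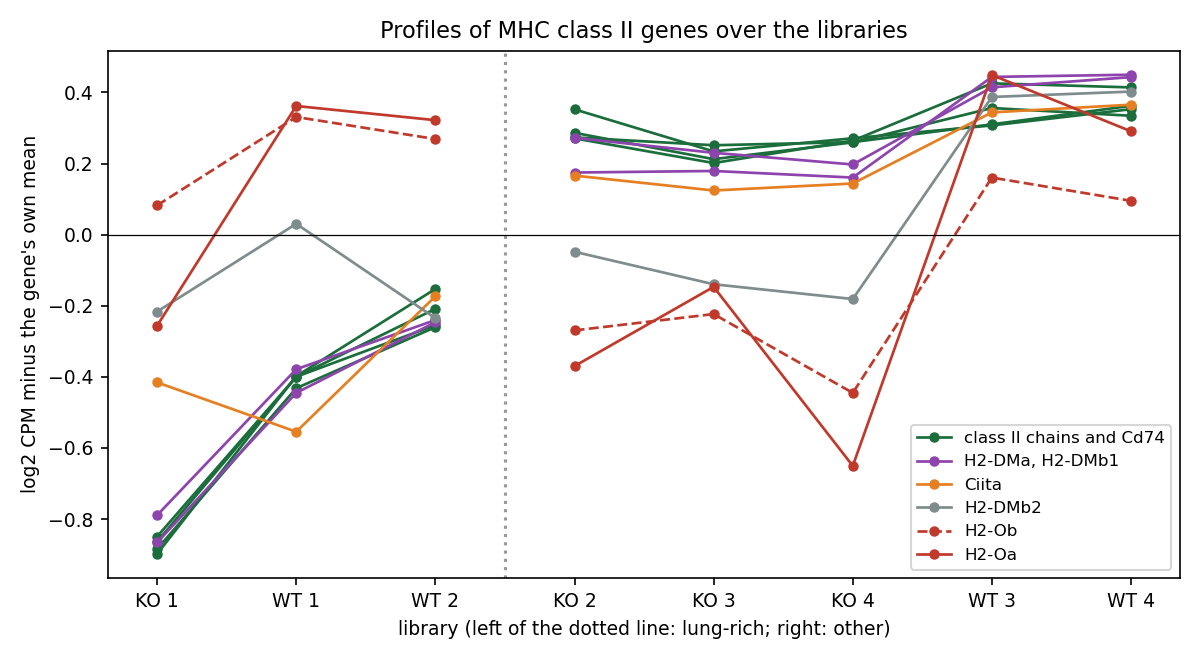
Log2 CPM of each class II gene minus its own mean over the 8 libraries, with the lung-rich libraries (KO 1, WT 1 and WT 2) left of the dotted line and the others right of it. The chains, Cd74, H2-DMa and H2-DMb1 share one profile with a low point at KO 1, while H2-Oa (solid) and H2-Ob (dashed) are below their mean in KO 2 to 4 and above it in every WT library.

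Set against the macrophage markers of the same library, class II was higher in Tgfbr2_KO when Apoe was among the markers. The 10 class II genes summed to 284%, 293%, 273% and 282% of the summed CPM of the 12 interstitial macrophage markers in KO 1 to 4, against 256%, 260%, 258% and 256% in WT 1 to 4, without overlap. Apoe, the most abundant of those markers, was at 2464, 5232, 6137 and 5735 CPM in KO 1 to 4, against 4135, 5171, 9183 and 9476 CPM in WT 1 to 4. Without Apoe in the marker sum the values were 382%, 390%, 384% and 387% in KO 1 to 4 and 355%, 380%, 413% and 412% in WT 1 to 4, which overlap. Without Apoe KO 1 stayed above WT 1 and, narrowly, WT 2, while KO 2 to 4 lay below WT 3 and WT 4. Outside the lung-rich set the direction of class II relative to the markers thus hung on 1 marker gene. This ratio was chosen after its values were seen. Dendritic cells also carry class II. The sum of 12 dendritic cell markers was 202 to 258 CPM in Tgfbr2_KO and 177 to 238 CPM in WT. In the 5 libraries outside the lung-rich set 10 of 12 had a log2 fold change above 0 and 2 below. EdgeR called 5 higher and 2 lower there, beside 19.7% and 18.7% of all genes. The part of dendritic cells in the class II values was not tested. The sum of 8 alveolar macrophage markers, led by Chil3, was 149.8 CPM in KO 1, 51.1 to 60.05 CPM in KO 2 to 4, 99.96 to 109 CPM in WT 1 and WT 2 and 391 CPM in WT 3 and WT 4.

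The genes of the proteins that sit on the X and Y boxes gave counts near those of all genes. Of the 7 genes of the RFX, NF-Y and CREB factors, all tested, edgeR called 0 with genotype only and 0 with the set as a term, with 0 and 1 at an unadjusted p under 0.05 in that order, where 10.4% and 30.7% of all genes were. In the 5 other libraries 2 were higher and 1 lower, beside 19.7% and 18.7% of all genes. Nfyb, a subunit of the Y box factor, was at 20.99, 18.6, 17.1 and 19.3 CPM in KO 1 to 4, against 18.3, 20.2, 14.7 and 15.05 CPM in WT 1 to 4, and rose within those 5 libraries (log2 fold change 0.30, SE 0.09, edgeR adjusted p = 0.0103). Rfx5, the DNA-binding subunit of the X box factor, was at 21.8, 21.8, 19.8 and 20.5 CPM in KO 1 to 4, against 23.5, 21.1, 23.6 and 24.3 CPM in WT 1 to 4, and fell there (-0.21, SE 0.08, edgeR adjusted p = 0.0381). Nfyc, at 33.6 to 36.1 CPM in Tgfbr2_KO and 31.2 to 33.1 CPM in WT, Rfxap, at 7.71 to 9.18 CPM in Tgfbr2_KO and 7.18 to 8.35 CPM in WT, and Rfxank, at 12.7 to 15.6 CPM in Tgfbr2_KO and 11.8 to 15.02 CPM in WT, did not pass in either fit of all 8 libraries.

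Among 11 genes known to act on Ciita, edgeR called 0 with genotype only (1 at an unadjusted p under 0.05, beside 10.4% of all genes). With the set as a term 1 was higher and 4 lower, beside 8.59% and 7.89% of all genes. The 2 chains of the receptor of interferon-γ, the cytokine that switches Ciita on in macrophages, both fell with the set as a term. Ifngr1 was at 230.1, 279.6, 294 and 288 CPM in KO 1 to 4, against 275, 297, 360.4 and 365 CPM in WT 1 to 4 (log2 fold change -0.33, SE 0.05, edgeR adjusted p = 0.00358). Ifngr2 was at 108, 144, 152 and 148 CPM in KO 1 to 4, against 142, 162, 179 and 181 CPM in WT 1 to 4 (-0.36, SE 0.06, edgeR adjusted p = 0.00797). Each KO library lay below the WT libraries of its own set for both. Irf8, a transcription factor of monocytes and dendritic cells (-0.28, SE 0.05, edgeR adjusted p = 0.00801), and the receptor kinase Jak2 (-0.25, SE 0.05, adjusted p = 0.0151) also fell, and Irf1, an interferon-induced activator of Ciita, rose (0.34, SE 0.08, adjusted p = 0.0240).

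Within the 5 other libraries 4 of these 11 genes were higher and 5 lower, beside 19.7% and 18.7% of all genes. Jak1, the partner kinase of Jak2 at the receptor, was at 296, 375, 377 and 378 CPM in KO 1 to 4, against 299, 295, 295 and 299 CPM in WT 1 to 4, so KO 2 to 4 stood above the rest (log2 fold change 0.35, SE 0.03 in the 5 libraries). Irf4, a transcription factor of the interferon regulatory family, was at 51.9, 140.3, 139 and 134 CPM in KO 1 to 4, against 65.6, 63.9, 101 and 93.0 CPM in WT 1 to 4 (0.51, SE 0.04 in the 5 libraries).

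Genes that cut the invariant chain and antigen, or remove class II from the surface, were tested for 9 of the 10 listed, and Ifi30 was not analysed here. With genotype only edgeR called 0 of 9 (0 at an unadjusted p under 0.05, beside 10.4% of all genes). With the set as a term 4 were lower and 0 higher, beside 7.89% and 8.59% of all genes. Ctss, cathepsin S, which makes the last cut in the invariant chain in macrophages and dendritic cells, was at 1029, 2077, 2071 and 2069 CPM in KO 1 to 4, against 1579, 2240.0, 4535 and 4595 CPM in WT 1 to 4. KO 2 to 4 were lower than WT 3 and WT 4, and near the level of WT 2. The log2 fold change of Ctss was -1.05 (SE 0.11, edgeR adjusted p = 0.00102) with the set as a term and -0.84 (SE 0.41, adjusted p = 0.570) without it.

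The lysosomal protease Lgmn (-0.46, SE 0.08, edgeR adjusted p = 0.00667), the cysteine protease Ctsl (-0.23, SE 0.05, adjusted p = 0.0134) and the aspartic protease Ctsd (-0.64, SE 0.13, adjusted p = 0.0169) also fell with the set as a term. Outside the lung-rich set 3 of 9 were higher and 5 lower, beside 19.7% and 18.7% of all genes. Ctsb, another lysosomal cysteine protease, was at 2111, 4796, 4873 and 4735 CPM in KO 1 to 4, against 2196, 2551, 3864 and 3954 CPM in WT 1 to 4, and rose in the 5 libraries outside the lung-rich set (log2 fold change 0.30, SE 0.03, edgeR adjusted p = 1.31e-08), where Ctss, Ctsl and Ctsd fell. March8, a ubiquitin ligase, was at 62.0 to 69.7 CPM in Tgfbr2_KO and 57.5 to 67.7 CPM in WT.

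Among other genes of the same stretch of chromosome 17, those of class I antigen processing were lower in KO 2 to 4 than in WT 3 and WT 4. Of 9 neighbours listed, 7 were in the table, and H2-Ea and H2-Ea-ps were not analysed here. EdgeR called 0 of 7 with genotype only and 0 with the set as a term. At an unadjusted p under 0.05 the counts were 1 and 3, beside 10.4% and 30.7% of all genes. Within the 5 other libraries the class I antigen processing genes Psmb8 (log2 fold change -0.62, SE 0.04), Tap2 (-0.44, SE 0.04), Psmb9 (-0.35, SE 0.05) and Tap1 (-0.34, SE 0.04) were lower and Btnl2 (1.37, SE 0.21) higher, so 4 of 7 were lower and 1 higher, beside 18.7% and 19.7% of all genes. Psmb8, a subunit of the immunoproteasome, was at 101, 109, 106 and 113 CPM in KO 1 to 4, against 89.5, 93.1, 172 and 164 CPM in WT 1 to 4. In the lung-rich set its log2 fold change was 0.09 (SE 0.11), and for these 4 genes the difference between the sets passed (edgeR interaction, 0.64 to 0.81 on the log2 scale), in the direction opposite to that of the class II chains, as for 8.84% of all tested genes. Btnl2, a butyrophilin-like surface protein, was at 2.61, 5.46, 6.17 and 4.62 CPM in KO 1 to 4, against 2.90, 2.68, 2.56 and 1.77 CPM in WT 1 to 4. Brd2, a chromatin reader that overlaps H2-DMa on the other strand, was at 398 to 424 CPM in Tgfbr2_KO and 418 to 498 CPM in WT, and H2-Eb2 at 5.95 to 6.54 CPM in Tgfbr2_KO and 6.45 to 7.73 CPM in WT.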

How the data were processed

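Poly(A) RNA libraries of sorted lung macrophages, 4 per genotype, were analysed. RNA came from TRIzol extraction, and a stranded mRNA kit and a NovaSeq were used, per the labels' protocols. The authors deposited 1 table of salmon estimated counts, per the file name, for all libraries, and its columns sum to different totals, as unscaled counts do. Per the submitters' processing notes the build was GRCm38 and DESeq2 1.40.1 was used. Not given in the sources used here were the version of salmon, its strand setting, the annotation and any filter.

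Rounded counts were fitted with edgeR 4.0.16 and limma 3.58.1 (R 4.3.3). Genes were kept by filterByExpr (minimum count 10, minimum total 15) with TMM scaling. The test was edgeR's robust quasi-likelihood F-test of genotype over all 12750 genes, Benjamini-Hochberg adjusted, with 0.05 as the threshold. Errors are SE for fold changes and SD for means, and intervals are at 95%. A count of 3 was 0.0844 to 0.177 CPM, a floor which covers counting error only. Alternatives used DESeq2 1.42.0, other scaling, no filter, the library set, the replicate number and left-out libraries. Log2 profiles used a prior count of 2. Transcripts were aligned with Biopython 1.88. The genotype-only edgeR fit was checked on simulated counts with no library set and with changes larger than those of the class II genes. The fits with the set as a term or within a set were not checked in this way.

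The class II genes, the gene lists and the library sets were chosen with earlier results of these data known. Named beside the 10 genes were up to 4 genes of each pathway list with the smallest adjusted p in the genotype-only fit and in the fit with the set term, the 6 nearest to H2-Ab1, and up to 3 leading genes of marker lists. Others named were chosen after their values were seen: Tgfbr2, Lyz2, Cd79a, Ms4a1, Pax5, Irf1, Psmb9 and Tap1. Some genes of the lists are not reported here and were left out of the list counts.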

Additional observations from a re-analysis of the deposited data

Results flagged for a closer look

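In 7 of the 10 class II genes KO 1 stood far below the other 3 Tgfbr2_KO libraries. The gap to its nearest neighbour divided by the range of the group (Dixon's ratio, set against its 95% critical value for 4 libraries, which each of these passed) was 0.972 for H2-Aa, 0.915 for H2-Ab1, 0.911 for H2-Eb1, 0.907 for H2-DMa, 0.974 for H2-DMb1, 0.862 for Cd74 and 0.914 for Ciita. It was 0.885 for the share of counts in the 10 genes, and 0.859 for H2-O as a percent of H2-DM, where KO 1 was highest. Chance alone passes this limit in about 1 of 20 groups, and these genes move together, so the ratios are not separate events. KO 1 is the only lung-rich Tgfbr2_KO library.

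The genotype difference (Tgfbr2_KO over WT, log2) was more negative in the lung-rich than in the other libraries for 5 genes by the edgeR interaction term: -0.47 for H2-Aa, -0.37 for H2-Ab1, -0.54 for H2-Eb1, -0.33 for H2-DMa and -0.49 for Cd74. The lung-rich side of each rests on KO 1 alone.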

How the results depend on the processing

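With genotype only, edgeR called 25 genes higher and 13 lower in Tgfbr2_KO. The counts were 53 and 28 without scaling, 347 and 180 with DESeq2, 1095 and 1006 with the set term, 2493 and 2363 without the lung-rich set, 443 and 273 within it, and 70 and 115 with the set term after summing WT 3 with WT 4 and dropping KO 4. The cause of these differences was not tested. Of the class II genes, 2 were lower with DESeq2, 5 with the set as a term and 9 in the 5 other libraries. Leaving out 1 library at a time gave 0 to 619 genes higher, 0 to 241 lower (467 to 1653 and 298 to 1823 at an unadjusted p under 0.05) and 0 to 1 class II genes lower. The counts of 619, 241 and 1 came without KO 1, when H2-Ob passed (-0.53, adjusted p = 0.0193), and without any other library edgeR called 0. The difference in class II share was -0.11 percentage points and ran between -0.47 and 0.55 in these repeats, above 0 without KO 1 (0.55), WT 3 (0.16) or WT 4 (0.19). H2-Aa, at 0.00 with genotype only, was at -0.073 in the 5 other libraries, where it passed. Of 170 alternative values of single class II genes, 153 stayed on their side of the threshold and the rest passed newly. The sign differed from the genotype-only value in 38 of the 170, among them 5 without KO 1, 4 without WT 3 and 5 without WT 4. Those of H2-DMb2, H2-Oa and H2-Ob differed in 0 of 17 alternatives each, those of H2-Aa in 13 and of Cd74 in 10.

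With the replicate number as a block edgeR called 0 genes higher and 0 lower (886 and 593 at an unadjusted p under 0.05), and 0 class II genes (2 at an unadjusted p under 0.05). Deviations of same-numbered libraries from their genotype means correlated at 0.87, -0.79, 0.69 and 0.75. Unlike-numbered libraries gave similar values, such as 0.88 for KO 1 with WT 2 and -0.88 for KO 1 with WT 4. The library set was not removed from these deviations, so they cannot decide whether the numbers mark pairs. The counts of class II genes that differed between the sets (8 lower, 1 higher) or in the interaction (5) were the same with DESeq2 size factors and without a filter. TMM, DESeq2 size factors and no scaling put the median log2 fold change of all genes at -0.01, -0.02 and -0.03. Depth limits H2-Oa most, at 44 to 168 counts.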
